A study of Mus musculus with 4 samples.

Results

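The class III POU factors are a family of transcription factors encoded by Pou3f1 (Oct6), Pou3f2 (Brn2), Pou3f3 (Brn1) and Pou3f4 (Brn4). They were chosen by gene symbol, and each symbol matched 1 of the 43346 gene rows in the count matrices. Each of these proteins binds DNA through a POU-specific domain and a POU homeodomain joined by a linker, and the members recognise closely related octamer-like sequences. They are known from the developing nervous system: Pou3f2 and Pou3f3 from neural progenitors and from upper-layer neurons of the cortex, Pou3f1 from myelinating Schwann cells and neural differentiation, and Pou3f4 from the striatum and the inner ear. The members often share sites with Sox factors.

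The cells came from the forebrain of wild-type C57BL/6 mouse embryos at E12.5, with no transgene or treatment in any library. The 4 libraries were made from the cortex (CTX) and from the ganglionic eminences, the ventral swellings that give rise to striatal neurons and interneurons: the lateral (LGE), the medial (MGE) and the caudal one (CGE). Each region was 1 library from pooled embryos (more than 4 per experiment in the study's methods), so levels were not tested between regions, and their intervals cover counting error only. Progenitors were taken as cells with a high level of Nes, the intermediate filament gene of neural progenitors, and young neurons as cells with a high level of Dcx, a microtubule-binding protein gene of newborn neurons. High means ln(1 + UMIs per 10000) above 1.5, where a UMI (unique molecular identifier) stands for 1 captured transcript.

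All 4 members have a single exon and 1 annotated transcript on GRCm38 (GENCODE M21). Pou3f1 lies at chr4:124656807-124660655 on the plus strand, Pou3f2 at chr4:22482780-22488366 on the minus strand, Pou3f3 at chr1:42695768-42703176 on the plus strand and Pou3f4 at chrX:110814280-110817207 on the plus strand. The members resemble each other most in the part of the coding exon that encodes the POU-specific domain, and a stretch of 90 bases from it is shown because it lets a reader see how near the paralogs are. Capitals mark the bases that differ from Pou3f1, and 73 of the 90 positions are the same in all 4 members. The stretches are chr4:124658532-124658621 (plus strand), chr4:22487160-22487249 (minus strand), chr1:42698169-42698258 (plus strand) and chrX:110815113-110815202 (plus strand), each written 5′ to 3′ along its gene.
Pou3f1: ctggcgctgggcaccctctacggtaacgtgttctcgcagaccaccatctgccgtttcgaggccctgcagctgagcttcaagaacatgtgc
Pou3f2: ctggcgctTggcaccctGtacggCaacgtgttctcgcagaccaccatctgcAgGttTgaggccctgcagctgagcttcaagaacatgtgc
Pou3f3: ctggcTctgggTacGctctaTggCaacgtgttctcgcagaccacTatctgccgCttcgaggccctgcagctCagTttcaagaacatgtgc
Pou3f4: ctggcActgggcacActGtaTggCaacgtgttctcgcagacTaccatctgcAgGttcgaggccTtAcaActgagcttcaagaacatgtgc
Pou3f2 differed from Pou3f1 at 6 of the 90 bases, Pou3f3 at 9 and Pou3f4 at 11. The longest run of identical bases shared by any pair of member transcripts was 38, between Pou3f1 and Pou3f2, and the longest run of the other pairs was 23 to 29. The run of 38 bases ended 2029 bases from the 3′ end of the Pou3f1 transcript and 4375 from that of Pou3f2, while this assay reads transcript ends. The gene models of Pou3f2 and Pou3f4 overlapped no other gene. An opposite-strand gene (Gm27247 in the files) shared 330 exonic bases with Pou3f1 and held 15 UMIs in the kept cells of all libraries. A same-strand gene (Gm20646) spanned Pou3f3 without sharing exonic bases and held 69 UMIs.

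The libraries held 4301 to 6953 barcodes and 31451467 to 49794765 UMIs, and 3195 to 4738 cells per library were kept, with a median of 6951 to 8257 UMIs. The high-Nes gate held 898, 649, 538 and 181 cells in CTX, LGE, MGE and CGE, and the high-Dcx gate held 800, 2117, 2207 and 2288. Between 16 and 72 cells per library passed both gates, and these were left out of each ratio between gates and of the fits of one gate against the other. They were kept in the member levels, shares, lineage ratios and co-detection counts within a gate. Of 8 progenitor markers, 7 or 8 were higher in high-Nes than in high-Dcx cells in each library, and all 7 young neuron markers were higher in high-Dcx cells. The summed endothelial, pericyte and microglial lists were also higher in high-Nes cells of every library. The widest gap was that of the 8 microglial genes in CGE, with a sum of 196 CPM in high-Nes and 0.759 CPM in high-Dcx cells, where CPM is the usual counts-per-million scale, relative to all UMIs of the group. With cells of those types removed, all 32 member levels moved by less than their counting intervals. Any 2 libraries shared 4 to 15 barcodes.

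Pou3f3 was the most even member across progenitors of the 4 regions. In high-Nes cells it stood at 254 CPM in CTX (exact Poisson 95% interval 243 to 265), 290 in LGE (276 to 305), 282 in MGE (267 to 297) and 284 in CGE (258 to 311). The highest library, LGE, was 1.14 times the lowest, CTX (exact 95% interval 1.07 to 1.22), and LGE, CGE and MGE did not differ from their neighbour in this order beyond counting error. In high-Dcx cells the order was MGE with 249 CPM, CGE with 177, LGE with 162 and CTX with 71.7, and each step was larger than counting error. High-Dcx cells held 0.278 times the high-Nes level in CTX (0.251 to 0.308), and the ratio was 0.534 in LGE, 0.631 in CGE and 0.887 in MGE (0.834 to 0.944). All 4 libraries thus had the lower level in young neurons, by the widest margin in CTX and the smallest in MGE.

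Pou3f2 was also a progenitor gene in these libraries, but its level depended on the region. High-Nes cells held 99.2 CPM in CTX (92.3 to 106), 301 in LGE (287 to 316), 248 in MGE (235 to 262) and 159 in CGE (140 to 180). Young neurons fell into a high pair and a low pair of regions. High-Dcx cells held 157 CPM in MGE and 145 in LGE but 30.2 in CTX and 25.2 in CGE, where MGE over LGE was 1.08 (1.02 to 1.15) and CTX over CGE was 1.20 (1.01 to 1.42). The level in high-Dcx over high-Nes cells was 0.150 in CGE (0.128 to 0.177), 0.289 in CTX, 0.459 in LGE and 0.625 in MGE (0.583 to 0.670).

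Pou3f1 ran the other way, with the higher level in young neurons of every library. High-Nes cells held 19.2 CPM in CTX (16.2 to 22.5), 61.7 in LGE (55.2 to 68.7), 106 in MGE (97.7 to 116) and 3.10 in CGE (1.01 to 7.23), where only 5 UMIs were counted. High-Dcx cells held 85.3 CPM in CTX, 720 in LGE (707 to 734), 199 in MGE and 110 in CGE. LGE neurons were thus 3.62 times as high as MGE neurons (3.48 to 3.78) and 8.44 times as high as CTX neurons (7.77 to 9.20). The ratio of high-Dcx to high-Nes cells was 15.9 in LGE (13.9 to 18.2), 4.75 in CTX and 1.93 in MGE. The CGE ratio, 33.6 (14.4 to 104), stood over 5 UMIs in high-Nes cells, a level not separable from background. Red blood cell barcodes, relative to their non-globin UMIs, held 87.3 CPM of Pou3f1 in LGE (37.7 to 172) and 9.78 in CTX (2.02 to 28.6). The high-Nes levels of LGE and CTX lay inside these wide intervals. The LGE and CTX ratios thus also stood over a level not separable from background by this measure. The MGE interval, 13.1 to 93.9, lay below the high-Nes level there. The progenitor level of Pou3f1 moved with the gate: with a limit of 1.0 it was 141 CPM in LGE and 27.0 in CGE, and with a limit of 2.0 it was 31.0 in LGE. Without the cells past both gates it was 46.4 CPM in LGE, below the interval given above.

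Pou3f4 separated the cortex from the eminences. High-Nes cells held 15.6 CPM in CTX (12.9 to 18.6), 82.7 in LGE (75.2 to 90.7), 68.1 in MGE (61.2 to 75.6) and 70.0 in CGE (57.7 to 84.1), and the 3 eminences did not differ from their neighbours in order beyond counting error. CGE, the middle of the 3, held only 113 UMIs against 448 in LGE and 350 in MGE. LGE and MGE were not compared directly, so their likeness is not shown. Without the cells past both gates the LGE level was 66.0 CPM. High-Dcx cells held 228 CPM in LGE (221 to 236), 222 in MGE (215 to 230), 101 in CGE and 5.91 in CTX (4.23 to 8.05). LGE neurons were 38.6 times as high as CTX neurons (28.3 to 54.1), whose share of cells with a UMI was not separable from background. LGE and MGE neurons could not be told apart (ratio 1.03, 0.979 to 1.08). High-Dcx over high-Nes was 3.52 in MGE, 3.44 in LGE and 1.73 in CGE (1.39 to 2.17) but 0.368 in CTX (0.249 to 0.535). Relative to non-globin UMIs, the Pou3f4 intervals of red blood cell barcodes were 8.77 to 82.4 CPM in MGE and 17.7 to 127 in LGE. They were 9.65 to 137 in CGE and 2.02 to 28.6 in CTX. The high-Nes level of each library lay inside its interval, so these ratios stood over levels not separable from background by this measure.

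**Figure D1:**
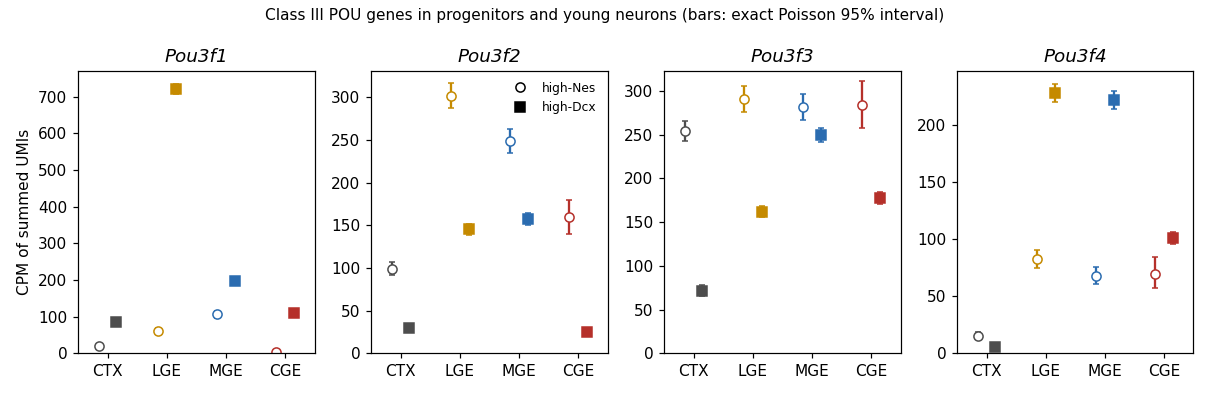
Level of each class III POU gene (CPM of summed UMIs) in high-Nes cells (open circles) and high-Dcx cells (filled squares) of the CTX, LGE, MGE and CGE libraries, with exact Poisson 95% intervals and a separate linear axis per gene. Pou3f2 and Pou3f3 lay lower in high-Dcx cells of every library, Pou3f1 lay higher, and Pou3f4 lay higher in the 3 eminences and lower in CTX.

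Shares of cells with a UMI followed the levels once every cell was thinned to 3000 UMIs, which left out 5 to 53 shallower cells per group. Pou3f3 was detected in 51.0% to 54.0% of high-Nes cells of the 4 libraries, and in 81.1% to 84.6% at full depth. Pou3f1 was detected in 50.1% of LGE high-Dcx cells (exact Clopper-Pearson 95% interval 47.9 to 52.3) and in 9.45% of those in CGE (8.28 to 10.7), against 60.9% and 13.3% at full depth. Single cells of the LGE high-Dcx gate held up to 62 UMIs of Pou3f1, and those of CGE up to 54. The mean of 0.766 Pou3f1 UMIs per CGE high-Dcx cell thus came from 13.3% of the cells.

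Background was read from cells that were taken to lack these genes. Of the 7 to 55 vascular, mesenchymal or myeloid cells per library (median depth 8692 to 17083 UMIs), 5 of 55 in CTX held a UMI of Pou3f3 at 3000 UMIs and 1 of 55 held one of Pou3f2. Pou3f1 was found there in 2 of 7 cells in LGE and 1 of 17 in CGE, and Pou3f4 in 2 of 28 in MGE. The 7 LGE cells had a median of 17083 UMIs against 7100 in all kept LGE cells. At full depth 1 of these 7 held all 4 members, and whether such cells were doublets with neural cells was not tested. The share of red blood cell barcodes with a UMI varied between libraries. It ran from 0% in CGE to 11.5% in LGE for Pou3f1 and from 0% in CGE to 8.20% in LGE for Pou3f2. For Pou3f3 it ran from 3.28% in LGE to 19.0% in CGE, and for Pou3f4 from 1.79% in CTX to 9.52% in CGE. Red blood cell barcodes held a median of 1185.5 to 1989 UMIs outside the globin genes, so their shares are not matched in depth to gated cells. Of the 168 red blood cell barcodes in CTX, 1.79% held a UMI of Pou3f4 (0.370 to 5.13) and 7.74% one of Pou3f3. The share of CTX high-Dcx cells with a Pou3f4 UMI, 4.12% at full depth, lay inside the first of these intervals and is not separable from background. The 2.21% of CGE high-Nes cells with a Pou3f1 UMI likewise lay inside the interval of the vascular, mesenchymal or myeloid cells there (2 of 17 cells, 11.8%, 1.46 to 36.4) and that of the 21 red blood cell barcodes, of which 0 held one (0 to 16.1). Both intervals are wide, and the share of CGE high-Dcx cells with a Pou3f1 UMI at full depth also lay inside them. With so few barcodes they cannot tell signal from background in CGE.

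The make-up of the family changed between the gates. UMIs mark transcript ends in this 3′ assay, so the shares of UMIs are not scaled by gene length, and differences in capture between the genes were not tested. In high-Nes cells Pou3f2 and Pou3f3 together held most of the class III UMIs: in CTX, LGE, MGE and CGE, Pou3f3 held 65.5%, 39.5%, 40.0% and 55.0% of them and Pou3f2 held 25.6%, 40.9%, 35.2% and 30.9%. In high-Dcx cells Pou3f1 held 57.4% of the UMIs in LGE (56.7 to 58.1) and 44.2% in CTX. MGE neurons had the most even mix, with 24.0% Pou3f1, 19.0% Pou3f2, 30.1% Pou3f3 and 26.9% Pou3f4. CGE neurons held 42.9% Pou3f3 and only 6.09% Pou3f2. The summed family level was 1256 CPM in LGE high-Dcx cells, 827 in MGE, 414 in CGE and 193 in CTX, against 736, 704, 516 and 388 in high-Nes cells. The sum was thus higher in young neurons in LGE and MGE and lower in CGE and CTX.

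**Figure D2:**
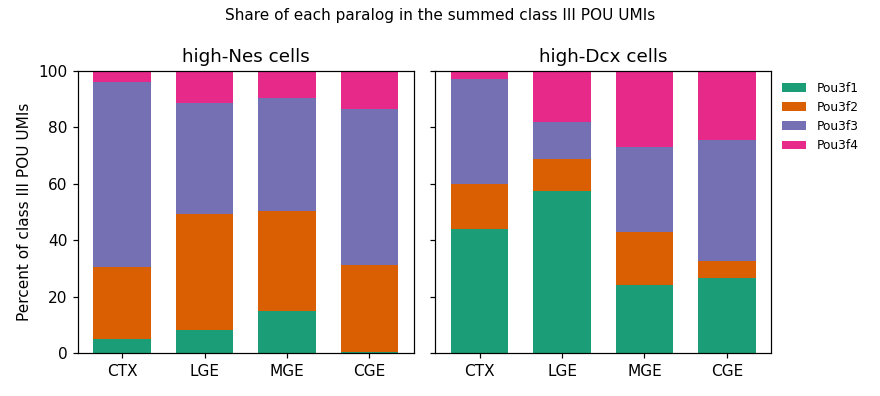
Share of the summed class III POU UMIs (percent) contributed by each paralog in high-Nes cells (left) and high-Dcx cells (right) of each library. Pou3f2 and Pou3f3 filled most of each high-Nes bar, while Pou3f1 reached 57.4% in LGE and Pou3f4 26.9% in MGE among high-Dcx cells.

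The change shared by the 4 libraries was tested on summed counts with edgeR's quasi-likelihood test and library as a block. Of the 12344 genes tested, 56.1% were called: 28.1% were called higher and 28.0% lower in high-Dcx cells, so a call in this comparison is common and the members' calls are read against that share. Pou3f1 rose by 2.82 on the log2 scale (SE 0.636, adjusted p = 0.0122), while Pou3f2 fell by 1.46 (SE 0.336, adjusted p = 0.0128) and Pou3f3 fell by 0.80 (SE 0.260, adjusted p = 0.0411). Pou3f4 had a log2 fold change of 1.01 (SE 0.538) and did not pass (adjusted p = 0.158). Leaving out 1 library at a time kept the calls for Pou3f1 and Pou3f2. The call for Pou3f3 was lost without LGE (adjusted p = 0.115) or without CGE (adjusted p = 0.0928), and Pou3f4 passed without CTX, with a log2 fold change of 1.60 (adjusted p = 0.00164).

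Whether the change differed between CTX and the eminences was tested as an interaction, with the single CTX library assumed to vary like the others. This comparison called 0.729% of the 12344 genes, with 0.567% higher and 0.162% lower in CTX. None of the 4 members was called by edgeR, and 2 of them had an unadjusted p under 0.05. The difference for Pou3f4 was -2.94 on the log2 scale (SE 0.508, adjusted p = 0.0732, unadjusted p = 0.00130) and for Pou3f3 -1.26 (SE 0.288, adjusted p = 0.136). DESeq2 called Pou3f4 (adjusted p = 6.52e-05), and edgeR called it without the CGE library (adjusted p = 0.0425). Pou3f1 (adjusted p = 0.908) and Pou3f2 (adjusted p = 0.903) had standard errors larger than their differences.

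From the high-Dcx cells, classes were then taken for cycling cells of the subventricular zone (SVZ) and postmitotic cells of the mantle zone (MZ) by the limits of the study on Mki67 and cyclin genes, with the other high-Nes cells as the ventricular zone (VZ). The 558, 1099, 1129 and 996 high-Dcx cells of CTX, LGE, MGE and CGE that met none of these limits were in no zone. Each zone of the 3 eminences was tested against the mean of the other 2, with a call at an adjusted p below 0.05 and a log2 change past 0.25. The CTX library held only 14 SVZ cells and was left out of this fit. Of the 11728 genes tested, 55.4% were called in VZ (29.3% higher, 26.1% lower), 26.0% in SVZ (15.2% higher, 10.8% lower) and 58.9% in MZ (30.0% higher, 28.9% lower).

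Pou3f4 was higher in the SVZ than in the zones on either side in LGE and MGE. It held 75.1, 255 and 172 CPM in VZ, SVZ and MZ of LGE, and 65.6, 237 and 181 in MGE. In CGE it held 71.0, 94.1 and 87.0 CPM, and the SVZ did not differ from either zone beyond counting error (SVZ over VZ 1.32, 0.967 to 1.80). In edgeR's test it was 1.05 higher in SVZ on the log2 scale (SE 0.180, adjusted p = 0.00222) and fell by 1.33 in VZ (SE 0.195, adjusted p = 0.000249), while its MZ value of 0.28 did not pass (adjusted p = 0.184).

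Pou3f1 climbed toward the mantle in LGE, with 60.2, 307 and 931 CPM in VZ, SVZ and MZ. In MGE it held 103, 222 and 216 CPM, so SVZ and MZ did not differ there beyond counting error (MZ over SVZ 0.973, 0.870 to 1.09). In CGE it held 3.14, 36.8 and 127 CPM. Across the eminences it was 2.01 higher in MZ (SE 0.412, adjusted p = 0.00182) and fell by 2.35 in VZ (adjusted p = 0.00196), and its SVZ value of 0.34 did not pass (adjusted p = 0.595). 

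Pou3f2 fell from VZ to MZ in each eminence, while Pou3f3 was lowest in MZ but fell at each step only in LGE. Pou3f2 held 307, 194 and 106 CPM in LGE, 250, 229 and 146 in MGE and 160, 94.1 and 17.8 in CGE. It was 1.05 higher in VZ (SE 0.274, adjusted p = 0.00844) and fell by 1.42 in MZ (SE 0.292, adjusted p = 0.00186). Pou3f3 held 297, 221 and 124 CPM in LGE, 280, 291 and 223 in MGE and 281, 321 and 142 in CGE. It fell by 0.83 in MZ (SE 0.147, adjusted p = 0.000746). Its higher values in VZ (0.39, adjusted p = 0.0386) and in SVZ (0.44, adjusted p = 0.0465) passed narrowly and were lost without LGE or without CGE (adjusted p = 0.0731 to 0.302).

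**Figure D3:**
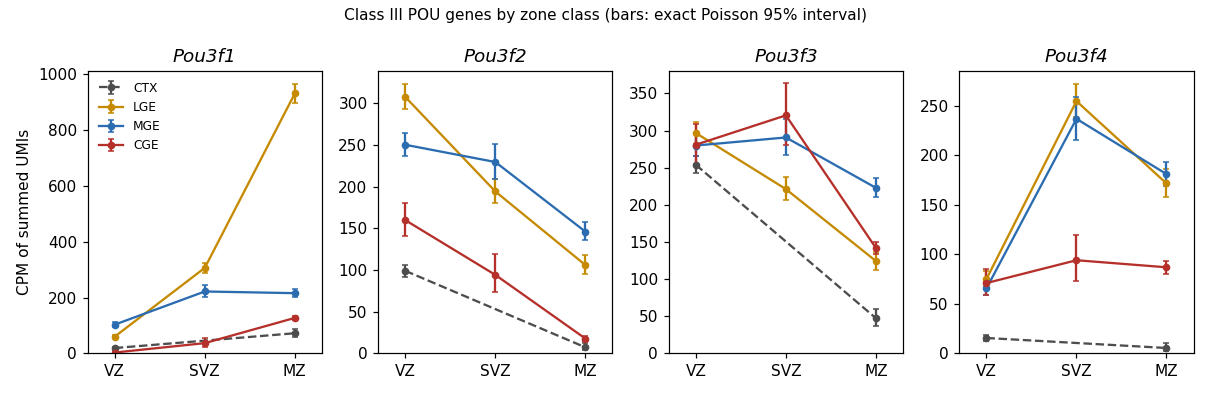
Level of each class III POU gene (CPM of summed UMIs, linear axes) in VZ, SVZ and MZ cells of each library, with exact Poisson 95% intervals. The dashed CTX line joins VZ and MZ directly because only 14 CTX cells fell in the SVZ. Pou3f1 reached 931 in LGE MZ, Pou3f4 was highest in SVZ in LGE (255) and MGE (237), and Pou3f2 was lowest in MZ in every library.

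Within the high-Dcx gate, members were compared between cells with and without a UMI of genes that mark neuronal lineages, with every cell at 3000 UMIs. Cells of 1 library are not replicates, so these ratios carry counting intervals and no test. Pou3f1 went with Isl1 and Ebf1, transcription factor genes of striatal projection neurons of the direct pathway. In LGE it stood at 1545 CPM in the 751 cells with Isl1 and 329 in the 1325 without (4.70 times, 4.41 to 5.02). The ratio for Isl1 was 7.76 in MGE (6.88 to 8.75), where the 129 cells with Isl1 held 413 Pou3f1 UMIs and the 2025 without held 835. It was 16.0 in CGE (13.8 to 18.6), where the 211 cells with Isl1 held 470 UMIs and the 2042 without held 284. For Ebf1 it was 2.39, 6.71 and 5.97 in LGE, MGE and CGE. In CGE the cells with Isl1 thus held more of the Pou3f1 UMIs than the far larger number without, and in MGE they held fewer. Whether the Isl1 cells of MGE and CGE were direct-pathway neurons was not tested.

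Pou3f1 was low in cells with interneuron genes. With Lhx6, the factor of interneurons from the MGE, it was 0.0628 times the level of cells without in LGE (0.0383 to 0.0971), 0.434 times in MGE and 0.152 times in CGE. With Sp8, a factor of dorsal LGE and CGE neuroblasts, it was 0.128 times in LGE and 0.0775 times in CGE (0.0370 to 0.143). With Prox1 and Nr2f2, factors of CGE interneurons, it was 0.324 times and 0.369 times in CGE. In CTX, 31 high-Dcx cells held Lhx6 and together had 1 UMI of Pou3f1, against 199 in 754 cells without.

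Pou3f4 took the other side of some of these genes and the same side of Lhx6 in LGE and CGE. It was higher with Sp8 in LGE (341 against 214 CPM, 1.59 times, 1.41 to 1.80) and in CGE (1.82 times, 1.52 to 2.16), and higher with Six3, a factor of indirect-pathway striatal neurons, in LGE (344 against 186 CPM, 1.85 times). It was lower with Ebf1 in all 3 eminences, at 0.370 times in CGE, 0.385 in LGE and 0.443 in MGE. Pou3f1 and Pou3f4 thus had opposite directions with Ebf1 and with Sp8 in LGE and CGE. With Lhx6, Pou3f4 was lower in LGE (0.465 times) and CGE (0.524 times), as Pou3f1 was, but higher in MGE (1.38 times). Pou3f1 with Six3 was 0.731 times in LGE but 3.63 times in MGE and 5.37 times in CGE.

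Pou3f2 in MGE neurons went with Lhx8, a factor of cholinergic and other subpallial projection neurons. The 661 cells with Lhx8 held 281 CPM of Pou3f2 and the 1493 cells without held 85.5 (3.29 times, 2.88 to 3.76). In CTX it was 5.18 times as high in cells with Neurod6, a gene of glutamatergic neurons (1.39 to 43.5, on 2 UMIs in the 88 cells without). In CGE, where the gene was low, it was higher with Neurod6 (3.53 times), Tbr1 (3.83 times), Ebf1 (5.42 times) and Isl1 (3.38 times), and lower with Sp8 (0.278 times). Pou3f3 varied less: its ratio lay between 0.587 and 2.30 for every lineage gene and library, and of its 31 intervals 9 lay above 1 and 4 below, against 13 above and 13 below for Pou3f1. Its highest value was with Gad2, the GABA synthesis gene, in CTX (171 against 74.4 CPM, 2.30 times, 1.38 to 3.63, 41 cells).

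**Figure D4:**
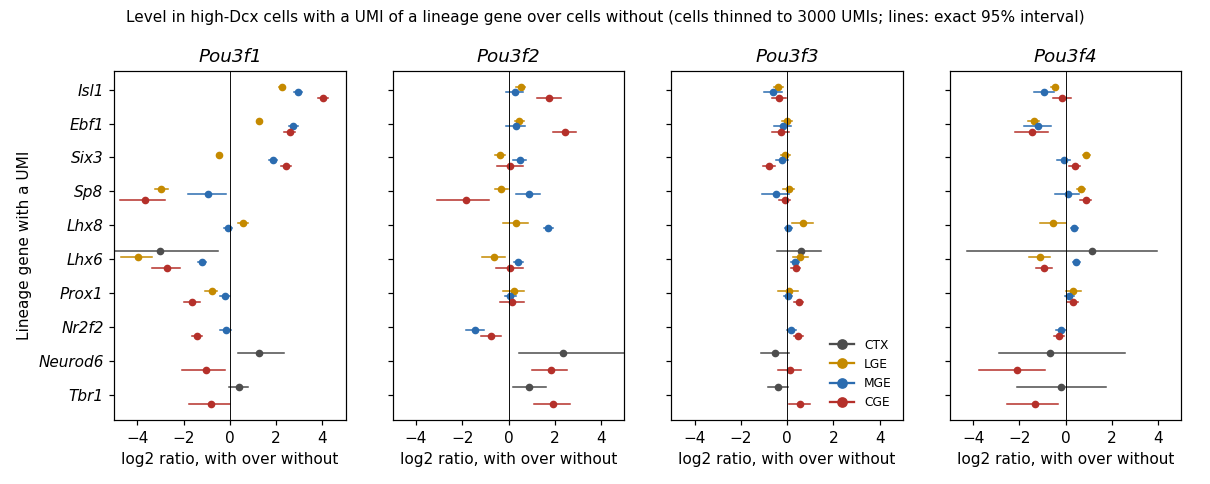
Log2 ratio of each class III POU gene in high-Dcx cells with over without a UMI of 10 lineage genes, with every cell thinned to 3000 UMIs and lines for exact 95% intervals, cut at 5 and -5. Pou3f1 lay right of 0 for Isl1 and Ebf1 in all 3 eminences and left for Sp8 and Lhx6, while the ratios drawn for Pou3f3 ran from 0.587 to 1.60 before the log. Genes with under 30 cells on a side, or no UMI on a side, have no point.

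In high-Nes cells the spread was narrower. Pou3f1 and Pou3f4 were lower in cells with Hes5, a Notch target of VZ progenitors: Pou3f1 stood at 37.9 against 137 CPM in LGE (0.276 times, 0.188 to 0.398) and 94.0 against 164 in MGE (0.572 times), and Pou3f4 at 0.359 times in CGE, 0.559 in MGE and 0.577 in LGE. Pou3f1 was higher in MGE progenitors with Gadd45g (220 against 80.0 CPM, 2.74 times) and with the Notch ligand gene Dll1 (214 against 93.0 CPM, 2.30 times), both switched on in progenitors that commit to neurons, and in CTX progenitors with Eomes, the gene of intermediate progenitors (2.75 times, 1.36 to 5.17). Pou3f2 and Pou3f3 were higher in cells with the proliferation gene Mki67 in LGE (1.23 and 1.41 times) and MGE (1.40 and 1.38 times), and Pou3f3 also in CTX (1.45 times).

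Co-detection was described by the count of cells with both members of a pair over the count that independent detection would give, within each library and gate. In high-Nes cells all 24 intervals held 1. The intervals let the observed count vary as Poisson and do not hold the shares of the pair fixed, so they are wide where shares are high. An interval that holds 1 thus does not show independence. In CGE no high-Nes cell held Pou3f1 with another member, and the upper limits of those intervals were 6.83 or more. In high-Dcx cells 7 of 24 intervals lay above 1 and 2 below. Pou3f1 and Pou3f2 had an interval above 1 in all 4 libraries: 28 cells held both in CTX against 11.7 expected (2.40, 1.59 to 3.47), 31 in CGE against 13.0 expected (2.39, 1.63 to 3.40), 351 in LGE against 302 expected (1.16) and 206 in MGE against 166 expected (1.24). Pou3f2 and Pou3f3 shared 24 CTX cells against 12.4 expected (1.93, 1.24 to 2.88) and stood at 1.17 in LGE (1.03 to 1.33). Pou3f3 and Pou3f4 stood at 1.16 in CGE (1.01 to 1.33). Pou3f2 and Pou3f4 shared 14 CGE cells against 30.3 expected (0.462, 0.253 to 0.776), but at full depth 88 cells held both against 87.8 expected. Pou3f1 and Pou3f3 in CGE stood at 0.761 (0.579 to 0.982).

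**Figure D5:**
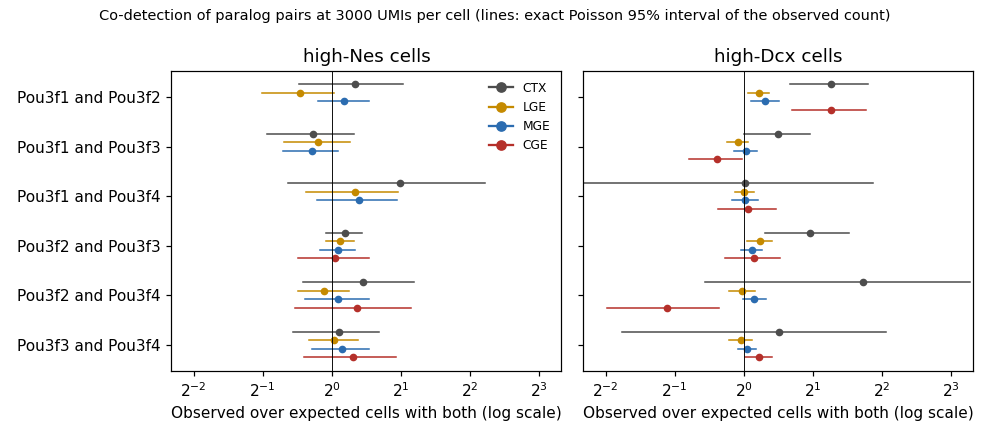
Observed over expected number of cells with both members of each pair (log axis) in high-Nes cells (left) and high-Dcx cells (right) at 3000 UMIs per cell, with exact Poisson 95% intervals of the observed count. The line for Pou3f1 and Pou3f2 lay right of 1 in all 4 libraries among high-Dcx cells. CGE high-Nes pairs with Pou3f1 have no point because no cell held both.

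The number of members found in 1 cell also differed between regions. At 3000 UMIs, none of the 4 was detected in 63.9% of CTX and 43.2% of CGE high-Dcx cells, against 14.1% in LGE and 17.9% in MGE. Of the LGE high-Dcx cells 36.0% held 1 member, 32.9% held 2, 14.3% held 3 and 2.75% held all 4. At full depth 4.63% of these LGE cells lacked a UMI of every member, and 42.5% of those in CTX. In vascular, mesenchymal or myeloid cells, 71.4% to 92.9% lacked all 4 members at 3000 UMIs.

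Other POU genes were read from a list of 11, of which 5 passed the filter on low counts. Of these 2 were called higher and 0 lower, beside 28.1% and 28.0% of all genes tested. Pou2f2 (log2 fold change 2.47, adjusted p = 0.000292) and Pou6f1 (1.58, adjusted p = 0.000512) rose in high-Dcx cells in edgeR's test. Pou2f1, Pou5f1 and Pou5f2 did not pass. Pou2f2 stood at 13.7 to 22.3 CPM in high-Nes and 74.7 to 121 in high-Dcx cells of the 4 libraries.

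Of 9 partners and described targets of the family, 3 rose and 3 fell in high-Dcx cells by edgeR's test, beside 28.1% and 28.0% of all genes tested, with a median log2 fold change of -0.52 against 0.01 over all genes tested. Myt1l (6.06, adjusted p = 0.000152), Sox11 (2.16) and Sox4 (1.29) rose, all genes of young neurons. Hes5 fell by 5.41, Fabp7, a radial glial lipid-binding protein gene, fell by 4.56 and Sox3 fell by 3.01 (adjusted p = 0.00632). Sox2 had a value of -1.06 that did not pass (adjusted p = 0.231), and it was 35.8 CPM in CTX neurons but 476 to 841 in those of the eminences. Sox2 was the 1 partner called in the test of whether the change differed between CTX and the eminences, at -3.62 (adjusted p = 0.0225).

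The noncoding RNAs Pantr1 and Pantr2 flank Pou3f3 on the opposite strand, with gaps of 925 and 3884 bases. Both fell with Pou3f3 in high-Dcx cells, Pantr1 by 1.25 (adjusted p = 0.00463) and Pantr2 by 2.76 (adjusted p = 0.00196). Pantr1 stood at 686 to 916 CPM in high-Nes cells and was among the genes most like Pou3f3 over the zones by Pearson's r, though not among the nearest 5 by Spearman's rho.

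Likeness was measured by Pearson's r of log2(CPM + 1) over 11 profiles (VZ, SVZ and MZ of the 4 libraries, without CTX SVZ) among 5408 genes, and profiles of 1 library share that library. The nearest genes were Rdx (0.988), Pantr1 (0.974), Cstf2, Nedd4 and Hnrnpr for Pou3f3, and Glul (0.958), Senp1, Zfp219, Pmpca and Zfp422 for Pou3f2. For Pou3f4 they were Ckap4 (0.933), Gpbp1, Bpgm, Csnk1a1 and Carhsp1, and for Pou3f1 Ldb1 (0.884), Zfp511, Ndufb10, Dpp3 and Suv420h2. Among the members, Pou3f2 and Pou3f3 were most alike (r = 0.85) and Pou3f1 and Pou3f3 least (r = -0.28). These lists depended on the measure: by Spearman's rho Rdx ranked 4 and Glul 2, but Ldb1 ranked 124, Pantr1 67, Ckap4 61, Zfp219 571 and Nedd4 639.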

How the data were processed

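Single-cell libraries of E12.5 wild-type mouse cortex and ganglionic eminences had been made with the 10x Genomics 3′ assay. The authors aligned reads to mm10 with Cell Ranger (version 3.0.2 in the file headers, 3.0.0 in the submitters' processing notes) and deposited raw UMI counts per gene and barcode, with no normalization. The annotation release, the strand setting and the kit version of each library are not given in the sources used here. The labels describe a sort for live cells, while the study's methods describe none for wild-type cells. These are separate libraries of different tissues, and the library block takes up level differences between them. The p-values thus rest on how class changes vary between regions: all 4 for the gates and the 3 eminences for the zones.

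Barcodes were kept with 1500 to 4500 detected genes, at most 5% mitochondrial UMIs and at most 1% Hbb UMIs. The study gives the first limits for genes in one place and for UMI counts in another, and they were applied to genes here. Predicted doublets (53 to 151 cells per library, those nearest to simulated pairs of cells) were removed. Cells with UMIs of at least 3 genes of a vascular, mesenchymal or myeloid list were called non-neural, and barcodes with 20% or more globin UMIs red blood cells. SVZ cells were high-Dcx cells in which Mki67 and Ccnd2 passed 0.5 while Rbfox3 and Mapt did not, and MZ cells were high-Dcx cells with Nes, Hes5, Mki67, Ccnd1 and Ccnd2 below 0.5. Genes of a gate are not reported between its classes.

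Counts were summed per library and class and tested with edgeR 4.0.16 in R 4.3.3 (TMM, filterByExpr, library as a block, Benjamini-Hochberg over all genes tested), after the code had been tested on simulated data. DESeq2 1.42.0, other normalization, filters, gates, depths and leaving out each library were alternatives. Levels are CPM of summed counts with exact Poisson intervals, shares have exact Clopper-Pearson intervals and ratios exact conditional intervals, all at 95%. UMIs limit the precision to counting error. A count of 0 was read as allowing about 3 counts, which is less than the exact Poisson intervals allow. Named genes were the 4 members, 11 other POU genes, 9 partners and targets, Pantr1 and Pantr2, fixed lineage genes and the 5 genes most like each member. Results that need an item withheld from the text are not reported here. The members and lists were chosen with earlier results of these data known. Sequences and positions were read from GENCODE M21 transcripts on GRCm38, whose gene IDs and versions matched those of the 4 members in the files.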

Additional observations from a re-analysis of the deposited data

Results flagged for a closer look

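Pou3f4 was set apart because its ratio of high-Dcx to high-Nes cells went one way in CTX (0.368) and the other way in LGE (3.44), MGE (3.52) and CGE (1.73). With CTX against the eminences in 1 model, edgeR's interaction test did not call it (adjusted p = 0.0732). The CTX neuron level was not separable from background.

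Several ratios of members in cells with over without a lineage gene lay on opposite sides of 1 in different libraries, with intervals that left out 1. These differences were not tested, and 31 ratios in high-Dcx and 19 in high-Nes cells were computed per member. Pou3f1 with Six3 was 0.731 in LGE, 3.63 in MGE and 5.37 in CGE. Pou3f1 with Neurod6 was 2.40 in CTX and 0.483 in CGE. Pou3f2 with Six3 was 0.783 in LGE and 1.40 in MGE, with Lhx6 0.642 in LGE and 1.34 in MGE, with Sp8 0.278 in CGE, 0.808 in LGE and 1.82 in MGE, and with Gad2 1.20 in MGE and 0.676 in CGE. Pou3f4 with Lhx6 was 0.465 in LGE, 1.38 in MGE and 0.524 in CGE.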

How the results depend on the processing

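The library block of the tests paired the classes of 1 library. No other pairing was possible, because each region was 1 library and the labels give no replicate numbers. The tested changes of members kept direction and side of the threshold in 184 of 220 alternatives, and the lineage ratios stayed within their intervals in 158 of 193. Member levels left their counting intervals in 51 of 224 alternatives, 18 of them with a gate limit of 2.0 and 16 with 1.0. Shares did so in 78 of 160, of which 31 were at full depth and 28 at 2000 UMIs. The lists of most alike genes moved in 8 of 12. For the exceptions the cause was not tested. In high-Dcx over high-Nes cells, the log2 value of Pou3f4 passed with a gate limit of 2.0 (1.29), and without the library block Pou3f2 (-1.14) and Pou3f3 (-0.68) did not pass. Leaving out 1 library gave 0.64 to 1.60 for Pou3f4 (passing without CTX) and -1.04 to -0.49 for Pou3f3 (not passing without LGE or CGE).

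In the zones, Pou3f3 in SVZ did not pass with DESeq2 size factors (0.43), DESeq2's own test (0.44), gate limits of 1.0 (0.45) and 2.0 (0.31), doublets kept (0.41) or no block (0.45), and Pou3f3 in VZ did not with thinned cells (0.31), a gate limit of 1.0 (0.31) or no block (0.35). Without the filter on low counts Pou3f1 (0.34) and Pou3f2 (0.37) passed in SVZ and Pou3f4 (0.30) in MZ, as did Pou3f4 in MZ with a gate limit of 2.0 (0.37). Without the block Pou3f1 and Pou3f2 did not pass in VZ (-2.36, 0.86) or MZ (1.95, -1.22). Leaving out 1 library gave 0.20 to 0.55 for Pou3f3 in VZ, 0.29 to 0.54 for Pou3f3 and 0.33 to 0.50 for Pou3f1 in SVZ (passing without MGE), and 0.15 to 0.40 for Pou3f4 in MZ (passing without CGE). Genes higher in SVZ numbered 1785, but 1049 with thinned cells, 1097 with a gate limit of 2.0 and 976 to 1486 without 1 library.

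The 90 genes of the CTX comparison became 343 with DESeq2, 404 without the filter, 24 with a gate limit of 1.0 and 58 (without CGE) to 236 (without LGE). Pou3f4 there passed with DESeq2 (-2.88), without the filter (-3.01) and with a gate limit of 2.0 (-2.71), Pou3f3 without the filter (-1.33), and leaving out 1 library gave -3.22 to -2.77 for Pou3f4. The value of Pou3f1 turned to 0.37 without LGE (range from -1.94) and that of Pou3f2 to 0.088 without MGE (range from -0.87). At full depth, values that crossed 1 were Pou3f2 with Pou3f4 in CGE neurons (1.00), Pou3f2 with Tbr1 in CTX (0.986) and Six3 in LGE (1.08), and Pou3f4 with Mki67 in CTX (0.885) and Nr2f2 in CGE (1.14). Pou3f1 in CGE progenitors rests on 5 UMIs.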
